A study of Mus musculus with 21 samples.

Results

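Non-tRNA transcripts with NSun2-dependent cytosines were examined at 4 positions of the mouse skin bisulphite data: Snhg3, an intron of Slit3, an intron of Npnt and the small nucleolar RNA SNORD62. The members were all cytosines listed on the transcript strand within 150 nt of these positions. They numbered 111 of the 897815 cytosines listed in any of the 8 libraries, with 38 around the Snhg3 position, 20 around Slit3, 19 around Npnt and 34 around SNORD62. The 4 affected positions themselves were chosen by the loss of unconverted reads between the genotypes, so their values are given as a description and were not tested. The term NSun2-dependent refers to this loss only. At Snhg3 the counted reads were far fewer than at neighbouring cytosines in several libraries, as described below.

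NSun2 is an RNA methyltransferase that adds a methyl group to carbon 5 of cytosine (m5C), chiefly in tRNAs. Sodium bisulphite deaminates unmethylated cytosine, which is then read as thymine, whereas m5C resists the treatment and is still read as cytosine. The percentage of unconverted reads at a cytosine therefore includes m5C, but also any cytosine that escaped conversion and any cytosine in a read that did not come from the RNA. Small nucleolar RNAs (snoRNAs) are cut from introns of host genes. Box C/D snoRNAs such as SNORD62 guide 2′-O-methylation of other RNAs, and box H/ACA snoRNAs guide pseudouridylation.

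Total back skin was taken from male mice at postnatal day 25, when hair follicles are in anagen, the growth phase of the hair cycle. The NSun2-/- mice carried the gene trap of clone D014D11 in every cell, on a C57Bl6/J CBA F1 background, and the wild-type (WT) mice came from the same breedings. The line derives from 1 gene-trap clone, and whole skin mixes epidermal, follicular, dermal and other cells. Each genotype had 4 bisulphite libraries. The deposited tables list only cytosines covered by 10 or more reads, and "not listed" therefore means fewer than 10 counted reads. Between 110324 and 665049 cytosines were listed per library, with a summed coverage of 8681271 to 60455763 reads and a median of 16 to 17 reads per cytosine. The epidermal keratin genes Krt5, Krt14 and Krt10 had 155 to 475 listed cytosines per library, and the dermal collagen genes Col1a1 and Col3a1 had 1222 to 3286. NSun2-/- replicate 2 was the shallowest library. The NSun2-/- replicates 1, 3 and 4 listed more cytosines than any WT library. Within the Nsun2 gene, 23 to 48 cytosines were listed in each WT library and 0 in each NSun2-/- library.

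The sequences are shown because the 4 positions share little beyond the cytosine itself. Each is the transcript strand of mm9, 5′ to 3′, with the affected cytosine in capitals. For Slit3 the following cytosine, which lost its unconverted reads too, is also in capitals. For SNORD62 the whole annotated snoRNA is given.
Snhg3, chr4:131908622-131908682, minus strand: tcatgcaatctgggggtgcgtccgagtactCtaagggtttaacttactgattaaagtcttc
Slit3 intron, chr11:35438761-35438821, plus strand: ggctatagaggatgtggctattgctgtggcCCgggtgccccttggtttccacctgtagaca
Npnt intron, chr3:132597725-132597785, minus strand: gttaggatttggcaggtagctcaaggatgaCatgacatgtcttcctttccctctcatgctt
SNORD62, chr2:32077490-32077574, plus strand: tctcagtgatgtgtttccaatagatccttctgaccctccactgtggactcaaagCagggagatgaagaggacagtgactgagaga

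The Snhg3 position, chr4:131908652, lay in an exon of 1 annotated transcript (Snhg3-003) of the snoRNA host gene Snhg3 (ENSMUSG00000085241.1) and in an intron of the overlapping Rcc1 gene. It was 38 nt past the annotated 3′ end of Snora73a, a box H/ACA snoRNA with the letters ACA at nucleotides 200 to 202 of its 205. The Slit3 position, chr11:35438791, lay in an intron 1774 nt from the nearest exon boundary of Slit3 (ENSMUSG00000056427.4), which encodes a secreted guidance protein that binds Robo receptors. The Npnt position, chr3:132597755, lay in an intron 3159 nt from the nearest exon boundary of Npnt (ENSMUSG00000040998.12), which encodes nephronectin, an extracellular matrix ligand of integrin. The SNORD62 position, chr2:32077544, was nucleotide 55 of 85 of the snoRNA (ENSMUSG00000065046.1), within an intron of Prrc2b. It lay between a CTGA at nucleotides 30 to 33 and the CTGA of box D at nucleotides 78 to 81.

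A cytosine followed by any letter and GGG (CNGGG) was looked for on the transcript strand from the affected cytosine itself, and not on the other strand. The Slit3 and SNORD62 positions had these letters, and the Snhg3 and Npnt positions did not. Over all tested cytosines, 2.22% had them, as did 61 of the 180 cytosines (33.9%) that edgeR called lower in NSun2-/-. Most of these 180 resemble tRNAs, and of the 28 that do not, 5 had the letters (17.9%), including the Slit3 and SNORD62 positions. Another of the 5 was a copy of SNORD62, described below, with identical letters there. The shorter CNGG, which every CNGGG contains, occurred at the same 2 positions and at 10.3% of tested cytosines, and none of the 4 was a CpG, against 16.0%. In the most stable structure predicted for each position with 50 nt on either side the affected cytosine was paired in all 4, with free energies from -38.2 kcal/mol for Slit3 to -21 kcal/mol for Snhg3. The longest run of letters shared with any tRNA-derived read of the small RNA libraries was 11 nt for Snhg3, 11 nt for Slit3, 16 nt for Npnt and 10 nt for SNORD62. Pairing and run length were not computed for other tested cytosines, so neither sets the 4 positions apart.

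At the Slit3 position the unconverted reads were 50 of 54, 28 of 29, 68 of 74 and 275 of 292 in WT replicates 1 to 4. They were 1 of 46, 1 of 18, 14 of 59 and 1 of 33 in NSun2-/- replicates 1 to 4. The means were 93.8% ± 2.07 (SD, n = 4) in WT and 8.62% ± 10.2 (SD, n = 4) in NSun2-/-, a difference of -85.2 percentage points. The genotypes did not overlap, and NSun2-/- replicate 3 was the highest of its group at 23.7% (95% Wilson interval 14.7 to 36.0%, counting error only). The next cytosine, chr11:35438792, was read by the same molecules and was 92.5% ± 2.27 (SD, n = 4) unconverted in WT and 6.61% ± 8.34 (SD, n = 4) in NSun2-/-. Since both values come from the same reads, they are not separate observations. The cytosine 1 nt upstream was 21.0% ± 2.81 (SD, n = 4) unconverted in WT and 18.9% ± 8.69 (SD, n = 4) in NSun2-/-. The loss thus spanned 2 of 3 adjacent cytosines.

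**Figure D1:**
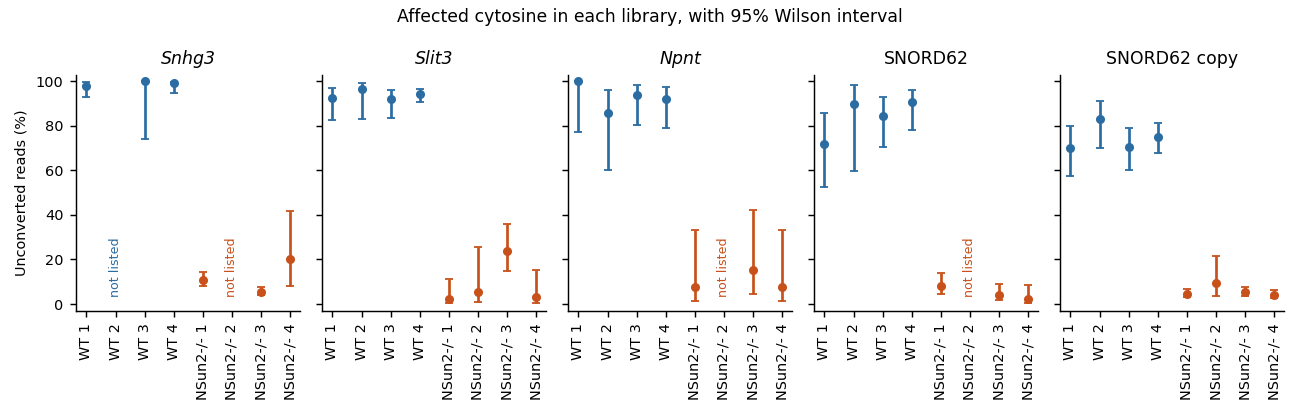
Percentage of unconverted reads (vertical axis) at each affected cytosine and at the SNORD62 copy in the 4 WT (blue) and 4 NSun2-/- (orange) libraries, with 95% Wilson intervals as bars. Where listed, WT libraries sit between 70.0% and 100%, and NSun2-/- libraries between 2.17% and 23.7%.

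At the Npnt position 13 of 13, 12 of 14, 31 of 33 and 35 of 38 reads were unconverted in WT replicates 1 to 4. In NSun2-/- replicates 1, 3 and 4 they were 1 of 13, 2 of 13 and 1 of 13, and replicate 2 was not listed. The means were 92.9% ± 5.88 (SD, n = 4) in WT and 10.3% ± 4.44 (SD, n = 3) in NSun2-/-, a difference of -82.7 percentage points. This was the most thinly covered of the 4 positions, with 98 WT and 39 NSun2-/- reads in all. The interval of a single NSun2-/- library was correspondingly wide, from 4.33 to 42.2% in replicate 3.

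At the SNORD62 position 18 of 25, 9 of 10, 33 of 39 and 38 of 42 reads were unconverted in WT replicates 1 to 4. In NSun2-/- replicates 1, 3 and 4 they were 11 of 135, 5 of 127 and 2 of 81, and replicate 2 was not listed. The means were 84.3% ± 8.60 (SD, n = 4) in WT and 4.85% ± 2.95 (SD, n = 3) in NSun2-/-, a difference of -79.4 percentage points. The lowest WT library, at 72.0%, lay far above the highest NSun2-/- library, at 8.15%.

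SNORD62 has a copy 3683 nt downstream in the Prrc2b locus, annotated as AL808027.3. A further stretch, chr3:94894542-94894627, matched it at 97.7% over 86 nt and was not analysed here. The 2 copies on chromosome 2 are identical over 87 nt, chr2:32077489-32077575 and chr2:32081172-32081258, so reads within that stretch cannot be assigned to either by sequence. The same letter of the copy, chr2:32081227, was found by sequence and was listed in all 8 libraries. Its unconverted reads were 42 of 60, 39 of 47, 62 of 88 and 120 of 160 in WT and 20 of 443, 4 of 43, 21 of 404 and 16 of 393 in NSun2-/-. The means were 74.6% ± 6.02 (SD, n = 4) in WT and 5.77% ± 2.40 (SD, n = 4) in NSun2-/-, and the genotypes did not overlap. The other 18 listed cytosines of the identical stretch were at 1.42% on average in WT and 2.77% in NSun2-/-. At both copies the unconverted reads inside the snoRNA were therefore concentrated on this 1 cytosine in WT skin.

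At the Snhg3 position 97 of 99, 11 of 11 and 98 of 99 reads were unconverted in WT replicates 1, 3 and 4. In NSun2-/- replicates 1, 3 and 4 they were 45 of 413, 33 of 604 and 4 of 20. Replicate 2 of either genotype was not listed. The means were 99.0% ± 1.01 (SD, n = 3) in WT and 12.1% ± 7.35 (SD, n = 3) in NSun2-/-, a difference of -86.9 percentage points.

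The reads counted as cytosine or thymine at the Snhg3 position were far fewer than at its neighbours in several libraries. The cytosine 8 nt upstream was covered by 120, 57, 110 and 143 reads in the WT libraries and by 588, 82, 675 and 401 in the NSun2-/- libraries. The Snhg3 position reached 82.5% and 69.2% of this coverage in WT replicates 1 and 4 but 11 of 110 reads in WT replicate 3. It reached 70.2%, 89.5% and 4.99% in NSun2-/- replicates 1, 3 and 4. In replicate 2 of each genotype, a position below 10 reads means at most 15.8% in WT and 10.98% in NSun2-/-. A read that is neither cytosine nor thymine at a position does not enter these counts. Across all cytosines with a listed neighbour within 10 nt, between 1.11% and 1.60% per library fell below 50% of the neighbouring coverage. The same share at the other affected positions lay between 86.7% and 108% for Npnt, between 89.4% and 104% for SNORD62 and between 91.5% and 116% at the SNORD62 copy, and was 100% in each library for Slit3.

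**Figure D2:**
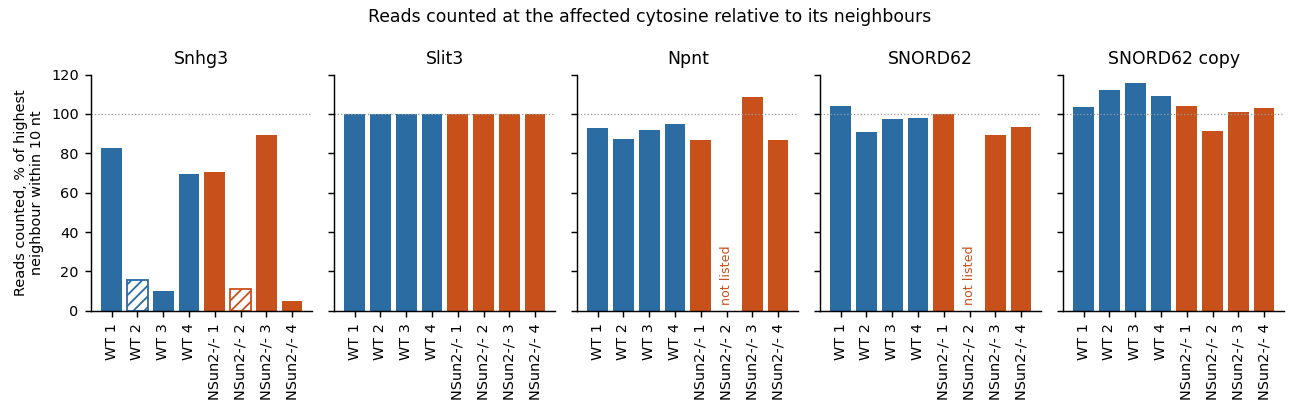
Reads counted at each affected cytosine as a percentage of the highest-covered listed cytosine within 10 nt (vertical axis), per library, WT in blue and NSun2-/- in orange. Hatched bars are upper limits for libraries in which the cytosine was not listed although a neighbour was, and at Snhg3 4 libraries lie at or below 15.8%.

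The cytosine 2 nt upstream of the Snhg3 position also differed between libraries of the same genotype. It was 92.4% unconverted in WT replicate 1, 20.0% in WT replicate 3 and not listed in WT replicates 2 and 4. In NSun2-/- replicates 1 to 4 it was 96.7%, 98.7%, 66.7% and 4.62% unconverted. Its coverage of 10 to 368 reads again did not follow that of the cytosine 8 nt upstream. Libraries of 1 genotype thus lay far apart at this cytosine, and the genotypes overlapped. A split between the genotypes like that at the Snhg3 position also lay past the 3′ end of the SNORD62 copy, 69 nt downstream. WT replicates 1, 3 and 4 were at 94.4%, 100% and 98.1% there, and NSun2-/- replicates 1 and 3 at 14.6% and 24.5%. The other libraries did not list that cytosine, and it was not tested. At 68 nt downstream of the copy, WT replicate 2 was at 0% and WT replicate 4 at 95.5%. At 67 nt WT replicates 1 and 4 were at 100% and 85.7% and NSun2-/- replicate 4 at 2.55%. The split ran the other way at 66 nt, where WT replicates 1 and 3 were at 20.0% and 0%. NSun2-/- replicates 1 to 4 were at 98.4%, 100%, 84.6% and 76.4% there. These cytosines were not tested either. The small RNA library kit named in the study's methods ligates a 3′ adapter and adds a library-specific index during amplification. The adapter and index sequences were not used here, and their part in the Snhg3 values was not tested.

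The cytosines around Snhg3 fell into a converted stretch and a mixed stretch, with both converted and unconverted cytosines, in both genotypes. The 28 neighbours inside Snora73a were 1.73% ± 0.354 (SD, n = 4) unconverted in WT and 3.60% ± 3.22 (SD, n = 4) in NSun2-/-. The 9 neighbours 3′ of Snora73a averaged 56.5% ± 10.2 (SD, n = 4) unconverted in WT and 58.2% ± 5.22 (SD, n = 4) in NSun2-/-, over those each library listed. Among them, the cytosine 29 nt upstream of the Snhg3 position was at 5.62% in WT and 5.75% in NSun2-/-. The cytosine 21 nt upstream of the Snhg3 position was 98.9% ± 1.03 unconverted in WT and 98.9% ± 0.337 in NSun2-/- (SD, n = 4 each). The cytosine 12 nt downstream was 97.8% ± 3.85 in WT and 95.6% ± 3.69 in NSun2-/- (SD, n = 3 each). The Snhg3 position therefore stood in a stretch where some cytosines were largely unconverted with or without NSun2 and others were largely converted. The nearest neighbour covered in all libraries, 8 nt upstream, was at 9.68% ± 1.53 in WT and 9.77% ± 2.71 in NSun2-/- (SD, n = 4 each).

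**Figure D3:**
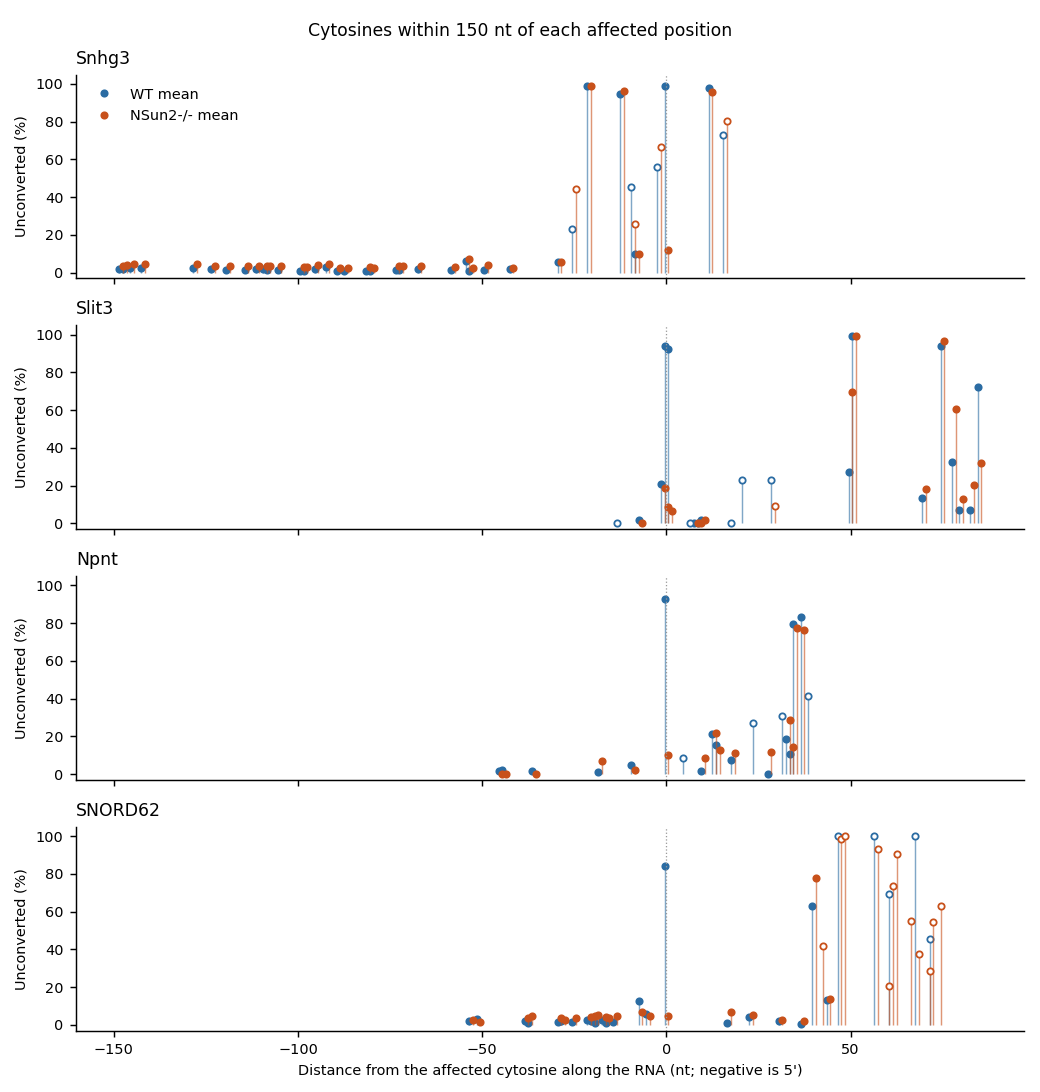
Mean percentage of unconverted reads (vertical axis) of each listed cytosine against its distance from the affected position along the RNA (horizontal axis, nt, 5′ to the left, the genotypes drawn 0.5 nt to either side), in WT (blue) and NSun2-/- (orange). Filled points were tested, being listed in 3 or 4 libraries per genotype, and open points were not. The affected cytosine drops from 84.3% or more to 12.1% or less, and each window holds some cytosines 3′ of the affected position, among others that are low, at 76.3% or more in both genotypes.

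Some largely unconverted cytosines, among others that were converted, lay on the 3′ side of the other windows too. In the SNORD62 window the 17 neighbours inside the snoRNA were 2.87% ± 1.96 (SD, n = 4) unconverted in WT and 4.27% ± 2.91 (SD, n = 3) in NSun2-/-. The 16 neighbours past its 3′ end averaged 28.9% ± 17.6 (SD, n = 4) in WT and 49.7% ± 7.22 (SD, n = 3) in NSun2-/-, over those each library listed. WT replicates 1 to 3 listed none more than 44 nt downstream, so the 2 means cover different cytosines and are not a like comparison. The cytosine 40 nt downstream was 63.3% ± 6.11 in WT and 77.9% ± 5.10 in NSun2-/-. In the Npnt window the cytosines 35 and 37 nt downstream were at 79.3% ± 13.6 and 83.5% ± 6.66 in WT and at 77.3% ± 3.94 and 76.3% ± 10.98 in NSun2-/-. In the Slit3 window the cytosines 51 and 75 nt downstream were at 99.5% ± 1.10 and 94.0% ± 2.92 in WT and at 99.4% ± 1.25 and 96.4% ± 2.62 in NSun2-/-. Each of these was high in both genotypes, unlike the affected cytosines. At the SNORD62 cytosine the genotypes did not overlap, with 54.5 to 68.2% in WT and 72.3 to 82.2% in NSun2-/-, and edgeR did not call it.

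The same contrast between an RNA and its 3′ flank was measured over all annotated snoRNAs. The mean percentage of unconverted reads inside snoRNA genes was 6.11% ± 2.79 (SD, n = 4) in WT and 12.3% ± 7.75 (SD, n = 4) in NSun2-/-, over 5016 to 7029 cytosines per library. In the 60 nt past the 3′ end it was 44.0% ± 2.00 in WT and 47.8% ± 1.96 in NSun2-/-, over 267 to 959 cytosines. In the 60 nt before the 5′ end it was 2.42% ± 0.992 in WT and 5.88% ± 4.66 in NSun2-/-, over 71 to 151 cytosines. The 3′ flank was thus the highest of the 3 regions in each library, and the lowest library in the 3′ flank (41.9%) lay above the highest inside the genes (21.6%). The part that non-genomic read ends play in these values was not tested.

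**Figure D4:**
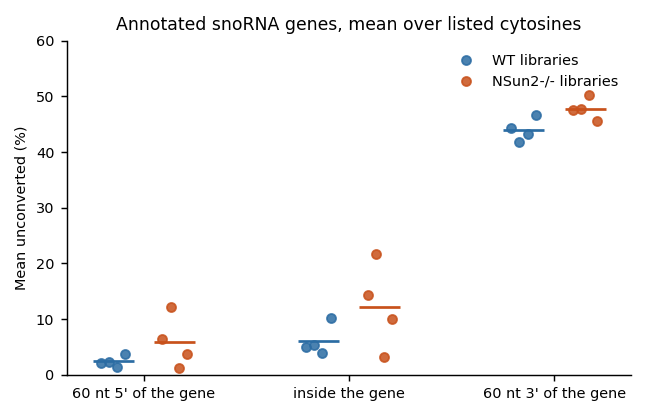
Mean percentage of unconverted reads (vertical axis) over listed cytosines before, inside and past annotated snoRNA genes, 1 point per library, WT in blue and NSun2-/- in orange, with genotype means as lines. The flank past the 3′ end lies between 41.9% and 50.3% in the 8 libraries.

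The unconverted share of all neighbours pooled, the affected cytosine left out, addressed whether whole windows lost unconverted reads. It was 2.40% ± 0.368 (SD, n = 4) in WT and 4.74% ± 3.01 (SD, n = 4) in NSun2-/- around Snhg3 (exact two-sided permutation p = 0.0286, the smallest that 70 assignments allow, and 0.114 after Benjamini-Hochberg adjustment over the 4 windows). NSun2-/- replicate 2, at 9.20%, decided the size of this difference of 2.34 points, which was 0.850 without it. Around Slit3 it was 33.5% ± 2.05 in WT against 30.6% ± 2.45 in NSun2-/- (SD, n = 4 each, exact permutation p = 0.114, adjusted 0.229). This pool still held the next cytosine, chr11:35438792, which was read by the same molecules as the affected one. Without it, a choice made after the values were seen, the direction turned, to 28.6% ± 1.97 in WT and 32.7% ± 2.48 in NSun2-/- (SD, n = 4 each, unadjusted exact permutation p = 0.0571). Around Npnt it was 16.1% ± 3.00 (n = 4) in WT and 18.3% ± 1.20 (n = 3) in NSun2-/- (exact permutation p = 0.371, adjusted 0.371). Around SNORD62 it was 7.60% ± 4.15 (n = 4) in WT and 11.7% ± 3.01 (n = 3) in NSun2-/- (exact permutation p = 0.200, adjusted 0.267), and the difference of 4.08 points was 14.3 with cytosines weighted equally and 1.60 at a minimum of 30 reads. The SNORD62 neighbours listed ran from 16 in WT replicate 2 to 33 in NSun2-/- replicate 1, so the libraries pooled different cytosines. No window passed the threshold after adjustment. A window that changed alone could not pass, since the smallest exact permutation p of 0.0286 becomes 0.114 over the 4 windows. The adjusted test therefore cannot decide whether a single window changed.

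Cytosine by cytosine, edgeR's quasi-likelihood test with Benjamini-Hochberg adjustment over 122736 tested cytosines called 180 lower in NSun2-/- (0.147%) and 140 higher (0.114%). The higher count rested on single libraries and the test, with 1 at a minimum of 30 reads, 11 with limma, 11 without NSun2-/- replicate 1 and 526 without NSun2-/- replicate 3. Of the 107 neighbours, 82 could be tested, and the other 25 were listed in too few libraries. A single neighbour was called lower, the cytosine beside the Slit3 position described above, and none was called higher. The median difference over the tested neighbours was 1.77 percentage points, against 1.13 over all tested cytosines. The 4 affected positions were each among the 180 by the way they were chosen.

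In the Slit3 window 4 further tested cytosines had genotype means at least 10 percentage points apart, and none passed this test. The cytosine 50 nt downstream was 24.1%, 46.4%, 25.0% and 12.8% unconverted in WT and 58.5%, 88.9%, 63.0% and 67.7% in NSun2-/- (edgeR adjusted p = 0.306). The cytosine 85 nt downstream went the other way, with 75.0%, 57.1%, 76.1% and 80.9% in WT and 47.6%, 5.88%, 40.7% and 33.3% in NSun2-/- (edgeR adjusted p = 0.608). The cytosine 78 nt downstream was at 32.4% ± 15.3 in WT and 60.5% ± 15.1 in NSun2-/- (SD, n = 4 each, edgeR adjusted p = 1), and the cytosine 83 nt downstream at 7.21% ± 1.97 (n = 4) and 20.4% ± 2.06 (n = 3, edgeR adjusted p = 1). The groups overlapped at 78 nt and not at the other distances. How often other tested cytosines differed by as much, or did not overlap, was not counted, so these differences have no background to be read against.

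Coverage of the affected cytosine was scaled to 1000000 reads of the cytosines listed in all libraries. It could be tested for Slit3, the only position of the 4 listed in all 8. Its values were 2.01, 1.26, 2.11 and 9.43 scaled reads in WT and 1.10, 2.24, 1.23 and 0.716 in NSun2-/-, a log2 difference of -1.14 (exact two-sided permutation p = 0.171). WT replicate 4 stood above the other libraries, and the groups overlapped. For Npnt the values were 0.485 to 1.23 in WT and 0.270 to 0.311 in the 3 NSun2-/- libraries that listed it. For SNORD62 they were 0.433 to 1.36 in WT and 1.76 to 3.23 in 3 NSun2-/- libraries. Where listed, the NSun2-/- values thus lay below those of WT for Npnt and above them for SNORD62, and neither was tested. In bulk skin, fewer cells of a type and less RNA per cell cannot be told apart.

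Of the 180 cytosines called lower, 152 lay in sequence resembling tRNAs and 28 did not. Among these 28, the affected positions ranked 2nd (Snhg3), 4th (Slit3), 5th (Npnt) and 6th (SNORD62) by the size of the fall, with the neighbour of the Slit3 position 3rd and the SNORD62 copy 7th. The 4 positions were chosen by this fall, so their high ranks follow from the choice and are no result. The neighbour shares its reads with the Slit3 position, and the copy its sequence with SNORD62. The 1st, chr2:151855346 on the minus strand and outside annotated genes, was at 99.7% in WT and 7.91% in NSun2-/-. The next after these, chr11:68851101, was at 94.9% in WT and 26.4% in NSun2-/-. In 14 of the 28, the coverage fell below 50% of a neighbour within 10 nt in at least 1 library. A cytosine not listed beside a listed neighbour was counted as uncovered. This group held Snhg3 but not Slit3, Npnt, SNORD62 or its copy. The share over all tested cytosines by the same rule was not computed, so the count has no background to be read against.

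The cytosines outside the 4 windows with the most similar pattern were ranked by the root mean square difference in percentage over the libraries in which the position was listed. For Snhg3 these were chr2:151855346 (5.04 points over 6 libraries), a cytosine in Eif4a2 (8.35) and one in Fcgr3 (12.1). For Npnt they were chr2:151855346 (8.05 points over 7 libraries), chr16:13704502 (13.4) and the SNORD62 copy (16.4). For Slit3 the SNORD62 copy came first, at 15.4 points over 8 libraries, followed by chr16:13704502 (23.7) and chr3:96227927 (25.8). For SNORD62 its own copy was nearest at 8.54 points over 7 libraries, followed by chr2:151855346 (14.4) and chr16:13704502 (19.2). The neighbouring cytosine of the Slit3 position lay inside its window and was therefore not ranked.

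Gene groups related to these transcripts were read against the background of 0.147% called lower. Of 9 RNAs outside tRNAs that have been named as NSun2 substrates, 5 were found in the annotation by symbol. Vaultrc5, Rpph1, Rn7sk and Rmrp were not found and were not counted here. Within 3 of those found, the small Cajal body RNA Scarna2 and the cell-cycle inhibitor genes Cdkn1a and Cdkn1b, 194 cytosines were tested and 0 were called in either direction by edgeR. Their median difference was 0.837 points. At a background of 0.147%, 194 cytosines are too few for 0 calls to be informative. Of 20 snoRNA host genes, 18 were found in the annotation, and 16 had a tested cytosine outside the 4 windows. Of their 1896 tested cytosines 2 were called lower, or 0.105%, which is near the background, and 1 higher, with a median difference of 2.27 points. The lower calls were the SNORD62 copy in Prrc2b and a cytosine in Eif4a2, which encodes a translation initiation factor. The higher call was in Snhg12, at 43.0% in WT and 90.4% in NSun2-/- (edgeR adjusted p = 0.0243).

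The Eif4a2 cytosine, chr16:23109128, was at 74.2% in WT and 24.6% in NSun2-/- (edgeR adjusted p = 0.000221). Like Snhg3 it had uneven coverage, from 14 to 1189 reads, below 50% of its neighbours in all 8 libraries. Within 172 annotated snoRNAs 5376 cytosines were tested outside the windows, of which the SNORD62 copy was the single call, and the median difference was 2.72 points. Elsewhere in Snhg3, Slit3 and Prrc2b, 122 cytosines were tested, with a median difference of 1.81 points. The copy was again the single call, while Npnt had no other tested cytosine. These counts leave out the 4 windows, which hold the called cytosines of Snhg3 and SNORD62.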

How the data were processed

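RNA of total back skin was depleted of ribosomal RNA, converted with bisulphite and sequenced with a small RNA kit. The authors aligned reads with Bismark (version 0.7.6 in the submitters' processing notes), which keeps unique best alignments. The deposited tables give, per cytosine, the percent unconverted and the counts of unconverted and converted reads. The methods name another mouse assembly, but 100% of listed positions fell on C or G of mm9, so mm9 and GENCODE vM1 were used. The deposited counts of tRNA-derived reads in the small RNA table served only for their sequences. The Pol III tables were not used.

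The strand was taken from the mm9 base. Windows of 150 nt, Wilson 95% intervals (counting error only; PCR reads are not independent molecules) and exact permutation tests were computed in Python 3.11.15. Cytosines listed (10 reads or more) in 3 or 4 libraries per genotype entered edgeR 4.0.16 (a quasi-likelihood test on unconverted and converted counts, adjusted p under 0.05 and at least 10 points of difference). On simulated data for this comparison, 98.5% of 200 losses among 20000 cytosines were recovered with 0 false calls. The simulated losses were far larger than the 10-point threshold, and unchanged cytosines had the same expected share in every library. The simulation therefore does not show how small losses or differences between single libraries are handled. Resemblance to tRNAs meant 20 shared letters or a blastn 2.17.0 match to a tRNA-derived read, or an annotated mitochondrial tRNA. Structures came from RNAfold 2.7.2.

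The members and gene lists were chosen with earlier results of these data known. Named were the 4 positions, the called neighbour, the 3 most similar cytosines per position outside tRNA-like sequence and called list members. Of the other neighbours only some were named, and not all of the nearest or of those at 20% or more in either genotype. Those 13 and 33 nt downstream of the Npnt position were among the ones left out. The plot of unconverted reads against distance from the affected position shows each listed neighbour. The SNORD62 copy, the coverage shares, the ranking of falls, the remaining Slit3 cytosines and the snoRNA flanks were added after the values were seen. Replicates are numbered in the labels and described as independent. Alternatives covered pooling of reads, coverage minimums, window size, weighting, scaling, limma 3.58.1, a replicate block and leaving out each library.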

Additional observations from a re-analysis of the deposited data

Results flagged for a closer look

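Of 18 groups of 4 libraries examined, 5 had a library far from the others, where chance gives about 1 in 20. At the Slit3 position NSun2-/- replicate 3 was at 23.7% unconverted, with 2.17 to 5.56% in the other NSun2-/- libraries. The share of unconverted reads over the Snhg3 neighbours was 1.85% in WT replicate 3, below the other WT libraries at 2.56 to 2.62%, and 9.20% in NSun2-/- replicate 2, above the other NSun2-/- libraries at 2.75 to 3.81%. Over the SNORD62 neighbours WT replicate 4 was at 13.8%, with 4.69 to 6.21% in the other WT libraries. Coverage of the Slit3 position was 9.43 per 1000000 reads in WT replicate 4, against 1.26 to 2.11 in the other WT libraries.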

How the results depend on the processing

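At the 4 affected cytosines the fall kept its direction under each alternative that gave a value. The positions were chosen for large falls in these same libraries, so the unchanged direction is no separate support. Leaving out 1 library at a time moved it from -90.8 to -83.5 points for Snhg3, from -90.2 to -83.0 for Slit3, from -85.2 to -80.3 for Npnt and from -83.5 to -77.4 for SNORD62. Npnt gave no value at a minimum of 20 or 30 reads. At the identical SNORD62 copy, an alternative added after seeing the data, the fall was -68.8 points.

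The Snhg3 neighbours were 2.34 points higher in NSun2-/- (unadjusted exact permutation p = 0.0286). This became 6.66 with a window of 50 nt (p = 0.0571) and 1.88 inside Snora73a (p = 0.257, added after seeing the data), neither below 0.05 in the exact permutation test, and ranged from 0.850 to 3.00 without 1 library. The Slit3 neighbours turned from -2.85 to 0.312 points with cytosines weighted equally, reached -6.13 (exact permutation p = 0.0571) with a window of 50 nt and -5.01 (exact permutation p = 0.0286) with cytosines listed in every library. These values hold the next cytosine, lost with the affected one. Without it, added after seeing the data, the difference was 4.15 over the whole window and 2.62 over cytosines listed in every library (exact permutation p = 0.0571 and 0.0857). Without 1 library it ranged from -3.90 to -2.03, the next cytosine kept. Without 1 library the Npnt neighbours ranged from 0.832 to 3.03, the SNORD62 neighbours from 2.51 to 6.13 and the Slit3 coverage from -1.50 to -0.528 on the log2 scale, the last of these without WT replicate 4. The SNORD62 neighbours were at 14.3 with cytosines weighted equally (exact permutation p = 0.0857) and 1.60 at a minimum of 30 reads. Beyond the next Slit3 cytosine, the cause of these shifts was not tested.

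Across all cytosines, 117 were called lower and 1 higher at a minimum of 30 reads, where 35118 were tested. The limma fit called 125 lower and 11 higher. Without 1 library the lower calls ranged from 130 to 210 and the higher calls from 11 (without NSun2-/- replicate 1) to 526 (without NSun2-/- replicate 3), so the number of higher calls depended on single libraries.

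Same-numbered libraries shared only a number: their deviations correlated at -0.0153, -0.0648, 0.133 and -0.000896. A replicate block called 179 cytosines lower and 151 higher. With the block the Snhg3 neighbours stayed at 2.34 points, with p = 0.125, the smallest that 16 sign flips (exact permutation) allow. Under the block the differences at the affected cytosines were -86.9, -85.2, -85.1 and -77.5 points for Snhg3, Slit3, Npnt and SNORD62.

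Depth limits the Npnt position most, with 13 reads in each NSun2-/- library that listed it. The 10-read minimum of the deposited tables hides positions in shallow libraries.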
